A study of Mus musculus with 24 samples.

Results

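Amino acids cross the membranes of a muscle cell through carrier proteins of several solute carrier families, and the genes of families 1, 7, 36, 38 and 43, with the heavy chain genes Slc3a1 and Slc3a2, were examined here. They were picked by gene symbol, with earlier results of these data known, which gave 42 genes of the 56941 listed. The cells were C2C12 mouse myoblasts, an established line, carrying the light-gated channel ChR2 fused to tdTomato (genotype ChR2::tdTomato), differentiated into sheets of muscle fibers on grooved fibrin gels in medium with horse serum and IGF-1. All tissues of the experiment came from this line, and RNA of 24 libraries was sequenced, poly(A)-selected except for low-input samples that the labels do not name. The control tissues (6 libraries) were not stimulated and twitched on their own, as all tissues did, and the others received blue light pulses in daily sessions of 60 min at 1, 4 or 10 Hz (6 libraries each), with RNA taken at the end of the training. Depth ran from 8052370 to 18159100 estimated counts per library. All 12 myotube marker genes passed the filter on low counts, while summed markers of adipocytes and endothelial cells stayed under 1 CPM (estimated counts scaled to library size) in every library.

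As background, amino acid carriers work in layers. Exchangers such as LAT1 (Slc7a5), held at the surface by the CD98 heavy chain (Slc3a2), bring in leucine and other large neutral amino acids in return for glutamine. Sodium-coupled carriers such as SNAT2 (Slc38a2) and the exchanger ASCT2 (Slc1a5) supply that glutamine, cationic carriers (Slc7a1, Slc7a2) bring in arginine and lysine, and xCT (Slc7a11) imports cystine, the precursor for glutathione, in exchange for glutamate. Carriers on lysosomes (Slc36a1, Slc38a7, Slc38a9) release or sense amino acids there, next to the kinase complex mTORC1. In muscle these carriers feed protein synthesis, and several are targets of the stress factor ATF4.

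Of the 42 genes, 24 passed the filter, 18 of them in every library, and the remaining 18 were not tested. Of those 18, 5 had no count in any library (Slc7a9, Slc7a10, Slc7a12, Slc38a11 and Slc36a3), and the others held at most 10 estimated counts in a library. The kidney heavy chain Slc3a1 was among them, and so was the light chain LAT2 (Slc7a8), whose level was 0.178 CPM at the lowest, 0.337 at the median and 0.658 at the highest in the control. Slc7a8 ranged from 0.398 to 1.14 CPM at 4 Hz, from 4 to 10 counts, and its groups overlapped.

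Levels per transcript length, in TPM (estimated transcripts scaled to a fixed total per library), were spread over a wide range. In the control, Slc3a2 stood highest with 362 ± 30.8 TPM (SD, n = 6), followed by Slc38a2 with 177 ± 12.9, Slc7a5 with 122 ± 5.75 and Slc38a10 with 73.4 ± 3.16. The control ranges of these 4 genes did not overlap with each other, nor with that of the next gene. From Slc7a1, the arginine carrier CAT1, with 23.3 ± 3.43 TPM down to Slc43a2 with 10.6 ± 1.53 TPM, each range overlapped with the next. The order of neighbours among those 7 genes was thus within the spread. Genes farther apart could be separate, as Slc7a1 (19.4 TPM at the lowest) was from Slc43a2 (12.9 TPM at the highest). A second such run led from Slc7a11 with 5.57 ± 0.485 TPM to Slc43a3 with 3.51 ± 1.37 TPM, and 6 genes from Slc38a3 to Slc43a1 lay at 1.39 TPM or less. Slc3a2 made up 40.9% ± 1.04 of the summed TPM of the 42 genes in the control, Slc38a2 20.1% ± 1.62, Slc7a5 13.8% ± 0.512 and Slc38a10 8.33% ± 0.547. At 4 Hz the share of Slc38a2 was 16.2% ± 1.97 and that of Slc38a10 10.6% ± 1.13, while the share of Slc3a2 was 42.7% ± 1.93. The summed TPM itself was 883 ± 54.7 in the control and 684 ± 107 at 4 Hz, so a larger share is not a higher level. Slc3a2 stood at 292 ± 46.3 TPM at 4 Hz.

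**Figure D1:**
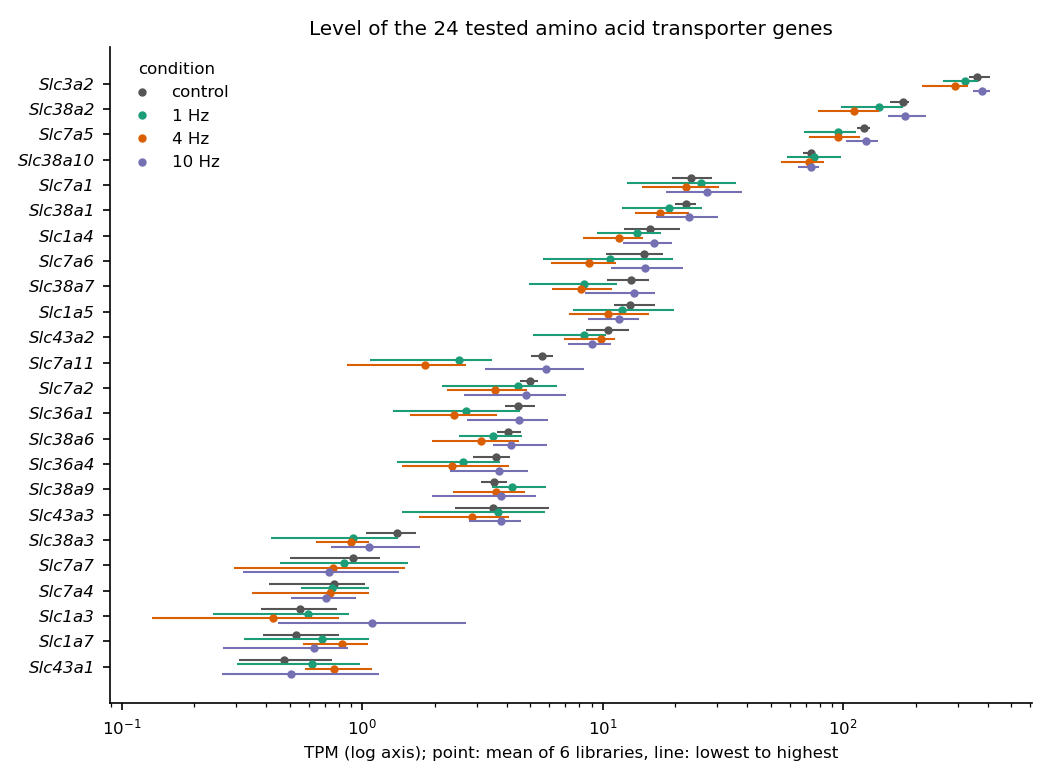
Level of the 24 tested amino acid transporter genes in TPM on a log axis, ordered by the control mean; points are means of 6 libraries and lines run from the lowest to the highest library of the control, 1 Hz, 4 Hz and 10 Hz. Slc3a2, Slc38a2, Slc7a5 and Slc38a10 stand apart at the top, and the 1 Hz and 4 Hz lines of Slc7a11 lie below its control line.

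The comparison with the control asked which carriers changed at each frequency, and the 3 comparisons share the control libraries. At 1 Hz, 1 of the 24 tested genes was higher and 4 were lower than in the control (adjusted p under 0.05, edgeR), which is 20.8%, against 37.3% of all 13315 genes tested (19.2% higher and 18.1% lower). At 4 Hz, 4 were higher and 6 lower, which is 41.7%, against 51.4% of all genes (27.5% higher and 23.9% lower). The 4 include Slc43a1, which entered the test only through 1 Hz and 4 Hz libraries. At 10 Hz none passed, against 0.0376% of all genes, and 2 had an unadjusted p under 0.05 by edgeR (8.07% of all genes did) and 3 by DESeq2. With an absolute log2 fold change over 0.5 as well, 3 genes passed at 1 Hz (12.5%, against 14.9%) and 4 at 4 Hz (16.7%, against 25.1%). Over the 24 genes the median log2 fold change came to -0.01 for 1 Hz, -0.05 for 4 Hz and 0.04 for 10 Hz, beside 0.04, 0.06 and 0.01 over all genes. The share of carriers that changed was thus not above that of all genes tested at either frequency. On the TPM scale, the median of all genes was itself shifted by -0.14 at 1 Hz and -0.21 at 4 Hz, and directions that depend on this are named with the genes. In GENCODE M39, 12 of the 24 tested genes have exons that overlap those of a gene on the opposite strand, among them Slc3a2 (Snhg1), Slc38a2 (Gm62499), Slc38a10 (Gm11769), Slc43a2 (Gm45606), Slc7a1 (Gm57292) and Slc38a1. The study's methods name a directional library kit, which marks the strand. Whether counting used the strand is not given in the sources used here, and without it the reads of such a pair cannot be told apart.

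**Figure D2:**
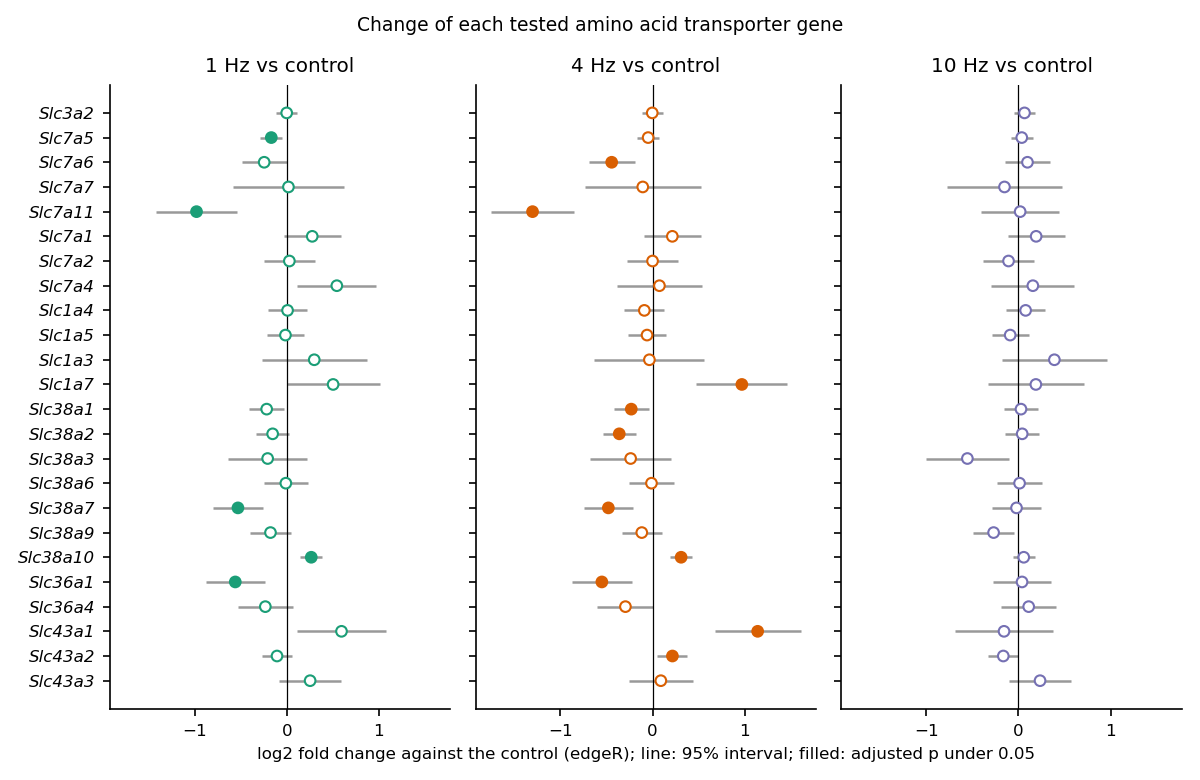
Log2 fold change of each of the 24 tested genes against the control at 1, 4 and 10 Hz, with its 95% interval; filled points have an adjusted p under 0.05. Slc7a11 lies farthest to the left at 1 and 4 Hz, Slc43a1 farthest to the right at 4 Hz, and no point is filled at 10 Hz.

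The summed markers of unfused myoblasts fell at 1 and 4 Hz without overlap, while those of the other cell states overlapped with the control. The summed level of 5 markers of unfused myoblasts was 362 to 442 CPM in the control, 183 to 244 at 1 Hz, 180 to 220 at 4 Hz and 344 to 387 at 10 Hz, with Myod1, Cdh15 and Pax7 lower and Myf5 higher at 4 Hz. The 5 fibroblast markers summed to 136 to 196 CPM in the control, 180 to 302 at 1 Hz, 193 to 277 at 4 Hz and 158 to 207 at 10 Hz. The 6 markers of cycling cells summed to 17.7 to 37.8 CPM in the control, 23.5 to 47.2 at 1 Hz, 22.1 to 30.4 at 4 Hz and 24.4 to 37.9 at 10 Hz. The 12 myotube markers summed to 13102.5 to 16631.8 CPM in the control and 10307.2 to 19402.7 at 1 Hz. Their sums were 14907.7 to 18344 at 4 Hz and 12346 to 14845.8 at 10 Hz, without overlap between these last groups. Single markers were called by edgeR, as were 37.3% of all genes at 1 Hz and 51.4% at 4 Hz. At 1 Hz, 2 fibroblast markers were higher and 0 lower, 1 cycling marker higher and 0 lower, and 0 myotube markers higher and 1 lower. At 4 Hz, 2 fibroblast markers were higher and 0 lower, 1 cycling marker higher and 2 lower, and 2 myotube markers higher and 1 lower. None of these genes was at 0 in a group, and of the 5 leukocyte markers only Cd68 was tested, which did not pass against the control. Their part in the carrier results was not tested, and in bulk RNA fewer cells of a type cannot be told apart from less of a message per cell.

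The CD98 heavy chain Slc3a2, the partner that most light chains of family 7 need to reach the surface, did not pass in any comparison. Its level was 339, 372 and 413 CPM (lowest, median and highest) in the control, 344, 376 and 393 CPM at 1 Hz, 342, 376 and 403 CPM at 4 Hz and 363, 388 and 416 CPM at 10 Hz. All 4 groups overlapped. The difference from the control had a 95% interval of -0.12 to 0.12 on the log2 scale at 1 Hz and of -0.12 to 0.11 at 4 Hz. On the TPM scale limma called the same gene lower at 4 Hz by a log2 value of -0.32 (adjusted p 0.00996), which is -0.11 relative to the median of all genes on that scale.

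LAT1 (Slc7a5), the leucine carrier, was slightly lower at 1 Hz. Its level was 258, 271 and 282 CPM in the control, 215, 243 and 269 CPM at 1 Hz, 251, 258 and 285 CPM at 4 Hz and 248, 282 and 301 CPM at 10 Hz. At 1 Hz 5 of 6 libraries lay below all controls, and at 4 Hz 3 of 6 did. The log2 fold change was -0.17 at 1 Hz (SE 0.061, adjusted p 0.0318) and -0.05 at 4 Hz (SE 0.061, adjusted p 0.523). On the TPM scale limma called Slc7a5 lower at 4 Hz too, by a log2 value of -0.37 (adjusted p 0.0141), and with the library medians removed it had -0.07, which did not pass. The call at 1 Hz was lost without control replicate 1 (adjusted p 0.0600) or control replicate 5 (adjusted p 0.0664), without a filter (adjusted p 0.0637) and with only those groups fitted (adjusted p 0.0655), and 4 Hz against 1 Hz did not pass for this gene.

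xCT (Slc7a11), the cystine and glutamate exchanger, had the largest fall of the 24 genes. Its level was 31.0, 34.1 and 36.3 CPM in the control, 9.21, 17.9 and 21.6 CPM at 1 Hz, 6.76, 13.2 and 19.6 CPM at 4 Hz and 21.2, 32.6 and 48.7 CPM at 10 Hz. All 12 libraries of the 1 and 4 Hz groups were under the lowest control, whereas at 10 Hz 3 libraries lay above all controls and 3 below. No overlap with the control was seen for 2 of the 24 genes at 1 Hz (14.1% of all genes) and for 6 at 4 Hz (27.6% of all genes).

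The log2 fold change of Slc7a11 was -0.98 at 1 Hz (SE 0.22, adjusted p 0.00164), or 0.507 of the control, and -1.30 at 4 Hz (SE 0.23, adjusted p 7.24e-05), or 0.405 of the control. At 10 Hz it was higher than at 4 Hz by 1.32 (SE 0.23, adjusted p 9.49e-05) and than at 1 Hz by 1.00 (adjusted p 0.00226). The lowest 1 Hz library, replicate 4, was also the lowest 1 Hz library for Slc36a1, Slc7a1, Slc38a2, Slc38a7 and Slc7a6. Of its estimated counts, 27.2% came from its 100 highest genes, against 21.4% to 26.1% in the other 1 Hz libraries. Without this library Slc7a11 still fell by 0.86 on the log2 scale (edgeR, adjusted p 0.00409). The share of the 100 highest genes was 23.1% to 29.8% at 4 Hz and 20.3% to 22.2% in the control. Mitochondrial genes held 0.545% to 8.90% of the counts at 4 Hz and 1.37% to 2.72% in the control. The part of these shares in the calls was not tested.

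Slc7a11 lies at chr3:49846975-50398070 on the minus strand of GRCm39 and overlaps no exon of another gene in GENCODE M39. The stretch around its RefSeq start, chr3:50443604-50443723 (- strand) of GRCm38.p6, is shown because the fall was largest here and the window holds a pair of matches to the core of the amino acid response element, the site to which ATF4 binds. The stretch runs from position -110 to 9, with the first transcribed base as 0 and both strands searched for TGATGNAA, and the 2 matches are in capitals, the second on the opposite strand.
Slc7a11: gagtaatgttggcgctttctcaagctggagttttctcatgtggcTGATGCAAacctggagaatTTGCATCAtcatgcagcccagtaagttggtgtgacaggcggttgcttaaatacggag
The matches start at positions -66 and -47. Of all 32851 RefSeq windows of 300 bases, 3.97% held at least 1 match, as did 4.51% of the 27025 genes with a window. Among the 31 of the 42 genes with a window, 3 did, and the other two, Slc7a7 and Slc1a4, did not pass at 1 or 4 Hz. The Atf4 gene itself was higher, with log2 fold changes of 0.41 at 1 Hz (SE 0.07, adjusted p 0.000131) and 0.49 at 4 Hz (SE 0.07, adjusted p 7.28e-06). On the TPM scale these values for Atf4 were 0.20 and 0.16 and did not pass (limma, adjusted p 0.0777 and 0.113).

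The other light chains differed among themselves. Slc7a6 (y+LAT2), which exchanges cationic for neutral amino acids, was 24.5, 29.7 and 32.9 CPM in the control, 17.99, 23.6 and 35.1 CPM at 1 Hz and 18.7, 20.5 and 27.1 CPM at 4 Hz. At 4 Hz 5 of 6 libraries lay below all controls, and the log2 fold change was -0.44 (SE 0.13, adjusted p 0.00532). With library medians removed on the TPM scale it was -0.41, just short of the threshold (adjusted p 0.0545). All 6 libraries at 10 Hz, from 27.5 to 38.02 CPM, lay above all at 4 Hz. Slc7a7 (y+LAT1) was low, with 4 to 17 counts per library, and did not pass. The TPM of the 10 light chain genes summed, divided by the TPM of Slc3a2, was 0.398 ± 0.0165 in the control, 0.339 ± 0.0439 at 1 Hz, 0.366 ± 0.0264 at 4 Hz and 0.386 ± 0.0461 at 10 Hz (SD, n = 6 each). This sum is mostly Slc7a5, with 122 ± 5.75 TPM beside 144 ± 7.91 TPM for the sum in the control, and 6 of the 10 genes were under the filter.

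The cationic carriers and the carriers of family 1 gave 1 call against the control among 7 tested genes, at 4 Hz, where 51.4% of all genes were called. The arginine carrier Slc7a1 (CAT1) was 93.1, 108 and 129 CPM in the control, 82.3, 138 and 163 CPM at 1 Hz, 88.0, 125 and 150 CPM at 4 Hz and 92.8, 123 and 160 CPM at 10 Hz. The trained tissues reached higher values but also lower ones than the control, and neither log2 fold change passed, 0.28 for 1 Hz (SE 0.16, adjusted p 0.169) and 0.21 for 4 Hz (SE 0.16, adjusted p 0.263). On the TPM scale the value at 4 Hz was -0.10. Slc7a2 (CAT2) and Slc7a4, a relative without an established substrate, did not pass either, with Slc7a4 at 1 Hz just over the threshold (adjusted p 0.0518).

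ASCT2 (Slc1a5), the glutamine exchanger, was 18.2, 20.2 and 24.1 CPM in the control, 15.1, 21.3 and 24.4 CPM at 1 Hz, 18.6, 20.1 and 20.7 CPM at 4 Hz and 15.8, 19.3 and 23.6 CPM at 10 Hz. The 4 Hz libraries lay within the control range, and the 95% interval of the log2 difference was -0.21 to 0.19 at 1 Hz and -0.26 to 0.14 at 4 Hz. Its relative ASCT1 (Slc1a4), which carries alanine, serine and cysteine, did not pass, and neither did the glutamate carrier Slc1a3.

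**Figure D3:**
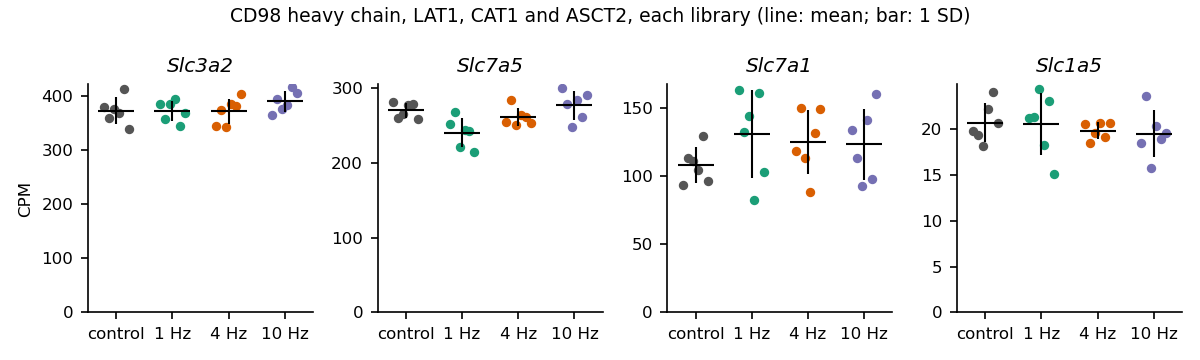
Level in CPM of the CD98 heavy chain Slc3a2, LAT1 Slc7a5, CAT1 Slc7a1 and ASCT2 Slc1a5 in each of the 24 libraries by condition, with the mean as a line and 1 SD as a bar. The groups overlap in all 4 panels, and the 1 Hz libraries of Slc7a5, from 215 to 269 CPM, sit lowest in theirs.

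Slc1a7 (EAAT5), a glutamate carrier known from the retina that also conducts chloride, was higher at 4 Hz. It was a rare message at 0.754, 0.889 and 1.42 CPM in the control, 0.854, 1.40 and 2.14 CPM at 1 Hz, 1.52, 1.84 and 2.59 CPM at 4 Hz and 0.559, 1.01 and 1.59 CPM at 10 Hz, which is 5 to 26 counts per library. All 4 Hz libraries lay above all controls, and the log2 fold change was 0.97 (SE 0.25, adjusted p 0.00257). At 1 Hz it was 0.50 (adjusted p 0.125).

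Family 38, the sodium-coupled neutral carriers and their relatives, held calls in both directions: 1 higher and 1 lower of 7 tested at 1 Hz, and 1 higher and 3 lower at 4 Hz. Of all genes, 19.2% were higher and 18.1% lower at 1 Hz, and 27.5% and 23.9% at 4 Hz. SNAT2 (Slc38a2), the glutamine carrier that cells raise when amino acids run short, was 477, 529 and 576 CPM in the control, 412, 478 and 521 CPM at 1 Hz, 304, 415 and 487 CPM at 4 Hz and 467, 530 and 632 CPM at 10 Hz. At 4 Hz 5 of 6 libraries lay below all controls. Slc38a2 changed by -0.36 on the log2 scale at 4 Hz (SE 0.09, adjusted p 0.00222) and had -0.15 at 1 Hz (SE 0.09, adjusted p 0.195), and 10 Hz was higher than 4 Hz by 0.40 (adjusted p 0.00115). SNAT1 (Slc38a1), a close relative, was lower at 4 Hz (log2 fold change -0.23, adjusted p 0.0446). That call was lost without any one of 7 libraries (control replicates 2, 3 and 5 and 4 Hz replicates 1, 4, 5 and 6), with adjusted p up to 0.0879. It was also lost with upper-quartile factors (adjusted p 0.0594), with the replicate block (0.0700), on the TPM scale (0.0793) and with library medians removed there, where the value was -0.04 (adjusted p 0.736).

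SNAT7 (Slc38a7), which exports glutamine from lysosomes, was lower at both frequencies. Its level was 19.5, 23.8 and 25.8 CPM in the control, 12.7, 15.3 and 21.1 CPM at 1 Hz, 14.3, 15.7 and 19.9 CPM at 4 Hz and 16.2, 23.7 and 28.0 CPM at 10 Hz. In each of these groups at 1 and 4 Hz, 5 of 6 libraries lay below all controls. It changed by -0.53 on the log2 scale at 1 Hz (SE 0.14, adjusted p 0.00362) and -0.48 at 4 Hz (SE 0.14, adjusted p 0.00507).

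Slc38a10, a family member found on internal membranes, moved the other way. It was 128, 134 and 141 CPM in the control, 148, 161 and 176 CPM at 1 Hz, 150, 167 and 189 CPM at 4 Hz and 134, 137 and 147 CPM at 10 Hz. All libraries of the 1 and 4 Hz groups exceeded all controls and all at 10 Hz. In log2 terms it was higher by 0.27 at 1 Hz (SE 0.06, adjusted p 0.00116) and by 0.31 at 4 Hz (SE 0.06, adjusted p 0.000145). On the TPM scale it was 0.03 at 1 Hz and turned to -0.04 at 4 Hz, neither of which passed, and with the library medians removed it was 0.25 and 0.27, which did.

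Of the remaining family members, the mTORC1 arginine sensor Slc38a9 did not pass, and neither did Slc38a3 and Slc38a6. For Slc38a9 the mean transcript length behind its counts (estimated count per TPM, relative to the library median) was 64.0% of the control at 1 Hz, with no overlap between the groups. It was the only one of 18 members measured in this way without overlap at 1 Hz, against 0.956% of 11503 genes.

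PAT1 (Slc36a1), the proton-coupled carrier of small neutral amino acids on lysosomes, fell with Slc38a7. Its level was 13.1, 14.2 and 16.6 CPM in the control, 6.40, 10.2 and 14.0 CPM at 1 Hz, 6.96, 9.35 and 13.0 CPM at 4 Hz and 10.0, 15.5 and 19.2 CPM at 10 Hz. At 4 Hz all libraries lay below all controls, and at 1 Hz 5 of 6 did. On the log2 scale this was -0.56 at 1 Hz (SE 0.16, adjusted p 0.00924) and -0.55 at 4 Hz (SE 0.17, adjusted p 0.00726). Its relative Slc36a4, a proline and tryptophan carrier, did not pass against the control, but was higher at 10 Hz than at 4 Hz (log2 fold change 0.41, adjusted p 0.0351).

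Family 43 carries branched-chain amino acids and phenylalanine by facilitated diffusion, apart from Slc43a3, which carries nucleobases. LAT3 (Slc43a1) had the largest rise at 4 Hz among the 24 genes, on few counts. It was 0.444, 0.727 and 0.816 CPM in the control, 0.651, 0.847 and 1.56 CPM at 1 Hz, 1.17, 1.33 and 1.90 CPM at 4 Hz and 0.447, 0.579 and 0.762 CPM at 10 Hz, which is 4 to 25 counts per library. No control and no 10 Hz library reached the filter's cutoff of 0.954 CPM, so that this gene entered the test only through 2 libraries at 1 Hz and 6 at 4 Hz, and a gene let in that way had to differ. The log2 fold change was 1.14 at 4 Hz (SE 0.24, adjusted p 0.000343) and 0.59 at 1 Hz (SE 0.25, adjusted p 0.0571). LAT4 (Slc43a2) was 24.4, 27.2 and 29.6 CPM in the control and 30.2, 30.7 and 34.8 CPM at 4 Hz, without overlap. Its log2 fold change at 4 Hz was 0.21 (SE 0.08, adjusted p 0.0332), which turned to -0.10 on the TPM scale. The call was lost without any one of control replicates 3, 4 and 5 or 4 Hz replicates 1, 3, 4 and 5, with adjusted p up to 0.115, and likewise with RLE factors (0.0536), without a filter (0.202) and with library medians removed from the TPM scale (0.103).

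**Figure D4:**
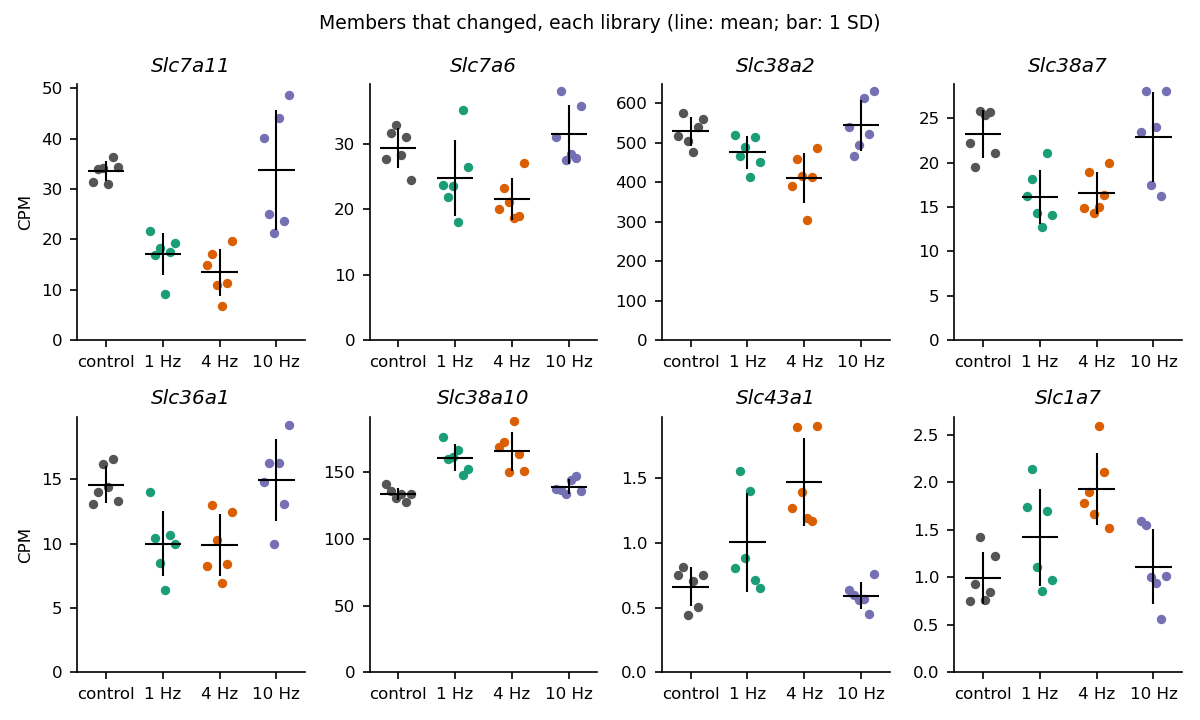
Level in CPM of 8 members that changed at 1 or 4 Hz, in each of the 24 libraries by condition, with the mean as a line and 1 SD as a bar. The 1 Hz and 4 Hz libraries of Slc7a11 lie at 21.6 CPM or less, under the lowest control at 31.0 CPM, and those of Slc38a10 lie above the highest control at 141 CPM.

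A letter match near the start was looked at in the members described above. The E-box CACGTG, which reads the same on both strands and is bound by MYC and by the lysosomal factors of the TFEB family, was found in the RefSeq windows of 7 of 31 members, 4 of which were tested (Slc38a7, Slc36a1, Slc1a7 and Slc43a1). It was found in 8.09% of all genes with a window and in 7.15% of all windows. These stretches of GRCm38.p6, also from position -110 to 9, belong to the 4 tested genes with the match, of 17 tested genes with a window, and capitals mark the E-box and matches to the antioxidant response core TGACNNNGC. They were chosen after the values were seen, and Slc43a1 entered the test only through the groups where it is high, so the calls of these genes, in both directions, say nothing of the match.
Slc38a7: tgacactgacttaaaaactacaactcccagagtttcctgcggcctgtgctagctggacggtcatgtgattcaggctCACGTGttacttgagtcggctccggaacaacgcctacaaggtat
Slc36a1: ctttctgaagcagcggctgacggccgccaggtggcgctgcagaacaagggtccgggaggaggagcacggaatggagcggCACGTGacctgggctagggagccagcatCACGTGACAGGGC
Slc1a7: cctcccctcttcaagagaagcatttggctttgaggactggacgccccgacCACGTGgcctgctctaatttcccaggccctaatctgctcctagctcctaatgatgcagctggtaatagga
Slc43a1: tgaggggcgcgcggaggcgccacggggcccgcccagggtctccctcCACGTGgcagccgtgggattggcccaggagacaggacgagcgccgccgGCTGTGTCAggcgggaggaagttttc
They lie at chr8:95853482-95853601 (- strand), chr11:55204230-55204349 (+ strand), chr4:107968296-107968415 (+ strand) and chr2:84840213-84840332 (+ strand). Slc36a1 held 2 E-boxes, at positions -31 and -3, the second overlapping the antioxidant response core at position 1, and Slc43a1 held an antioxidant response core at position -16. That core stood in 12.4% of all windows, in 14.0% of all genes with a window and in 5 members, the others being Slc7a6, Slc7a1 and Slc38a2. Slc7a11 had neither motif in its window. None of these 4 genes shares exon sequence with an antisense gene in GENCODE M39.

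Between the frequencies, 4 Hz and 1 Hz differed for none of the 24 genes, with 4 at an unadjusted p under 0.05 by edgeR (11% of all genes) and 2 by DESeq2. Of all genes, 0 were called by edgeR here, and DESeq2 called 7 higher and 10 lower. Slc43a2 came closest, higher at 4 Hz by 0.32 with no overlap of libraries (0.376% of all genes did not overlap) and an adjusted p of 0.259. At 10 Hz against 1 Hz, 5 genes were higher (Slc7a5, Slc7a6, Slc7a11, Slc38a7 and Slc36a1) and 2 lower (Slc38a10 and Slc43a1), 29.2% against 27.9% of all genes (14.8% higher and 13.1% lower). The lower call of Slc43a1 was lost without a filter, with DESeq2, and without any one of 1 Hz replicates 2 and 4 or 10 Hz replicates 1 to 5, with adjusted p up to 0.177. At 10 Hz against 4 Hz, 7 were higher (Slc7a6, Slc7a11, Slc38a1, Slc38a2, Slc38a7, Slc36a1 and Slc36a4) and 4 lower (Slc1a7, Slc38a10, Slc43a1 and Slc43a2), 45.8% against 46.3% of all genes (21.9% higher and 24.4% lower). Slc43a1 entered the test only through 1 Hz and 4 Hz libraries, so its lower calls at 10 Hz are no support. At 10 Hz against the control the log2 fold changes of the 24 genes ran from -0.55 (Slc38a3) to 0.39 (Slc1a3), with no adjusted p under 0.530.

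**Figure D5:**
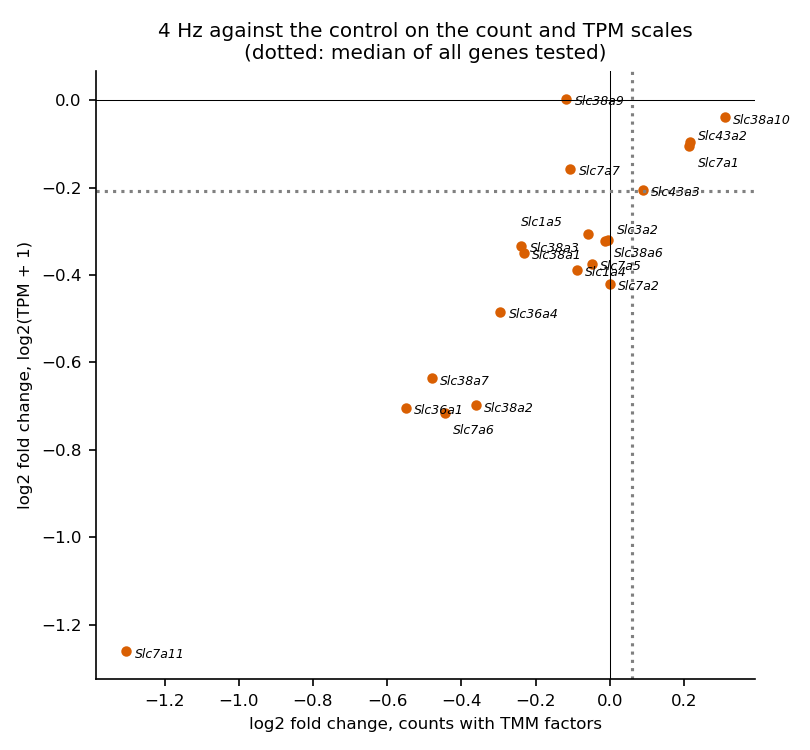
Log2 fold change at 4 Hz against the control for the 20 members tested on both scales, from counts with TMM factors on the horizontal axis and from log2(TPM + 1) on the vertical axis; dotted lines mark the median of all genes on each. The TPM median lies at -0.21 and the count median at 0.06, and Slc38a10, Slc43a2, Slc43a3 and Slc7a1 are above 0 on the count axis and below 0 on the TPM axis, with Slc38a9 the other way round.

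Other genes of amino acid handling were counted from 3 lists. For comparison, 51.4% of all genes were called at 4 Hz (27.5% higher and 23.9% lower) and 37.3% at 1 Hz (19.2% and 18.1%). Of 15 tested carriers of other families, 3 were higher and 7 lower at 4 Hz and 2 and 7 at 1 Hz, with a median of -0.31 at 4 Hz. The mitochondrial glutamate carrier Slc25a22 fell by 1.25 on the log2 scale at 4 Hz (SE 0.14, adjusted p 1.85e-07), the mitochondrial basic amino acid carrier Slc25a29 by 0.91 (adjusted p 7.72e-08) and the taurine carrier Slc6a6 by 0.97 (adjusted p 5.23e-06). The lysosomal peptide and histidine carrier Slc15a4 was higher by 0.31 (adjusted p 0.00125), but had -0.09 on the TPM scale, which did not pass.

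Of 34 tested genes of amino acid sensing at mTORC1, 7 were higher and 6 lower at 4 Hz and 8 and 4 at 1 Hz. Sesn1, a leucine sensor relative that restrains mTORC1, was higher by 0.69 at 4 Hz (adjusted p 7.48e-07). Mios, a part of GATOR2, and the Rag GTPase Rragc had log2 fold changes of -0.63 (adjusted p 3.13e-05) and -0.39 (adjusted p 6.68e-05). Of 29 tested genes of amino acid synthesis and ATF4 targets, 12 were higher and 8 lower at 4 Hz and 11 and 7 at 1 Hz. Trib3, an ATF4 target, was higher by 0.80 (adjusted p 4.08e-06), while the branched-chain transaminase Bcat1 had a log2 fold change of -0.53 (adjusted p 0.000164). None of the 3 lists held a call at 10 Hz.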

How the data were processed

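RNA of 24 libraries was analysed, 6 per condition, which the study describes as biological replicates. The authors ran the nf-core/rnaseq pipeline on GRCm39 with Ensembl genes, and they deposited the estimated counts of each gene, not normalized. The authors also deposited TPM, scaled by transcript length and to the same total in each library. The labels name STAR, Salmon, BWA and bedtools without saying which step each served, and say that libraries were poly(A)-selected, but low-input samples, which they do not name, ribodepleted. Tissues were kept in 24-well plates and lysed on the same day of differentiation, and the library kit was directional. Which tissues shared a plate, and whether counting used the strand, is not given in the sources used here. No 2 libraries held identical values.

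Estimated counts were rounded and kept with filterByExpr (minimum count 10, minimum total 15), leaving 13315 genes. All 24 libraries were fitted in 1 model with TMM factors and the quasi-likelihood test of edgeR 4.0.16 (R 4.3.3), and p-values were adjusted by Benjamini-Hochberg over all genes. CPM used the TMM factors. The standard error is the log2 fold change divided by the square root of F. The common biological coefficient of variation over all genes was 14.8%. The precision of each fold change also depends on the gene's own spread, its counts and the number of libraries. Alternatives were DESeq2 1.42.0 on the rounded counts and limma 3.58.1 on log2(TPM + 1), which is not a count scale and understates the change of low genes, kept where 6 or more libraries reached 1 TPM. The methods were tested on simulated data. Promoter windows came from RefSeq (GRCm38.p6, 250 bases before the start to 50 after), with 31 of 42 members matched, and gene positions from GENCODE M39.

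The members and lists were chosen with earlier results of these data known. Every member was accounted for by name or count. Values in full were given for members past the threshold with an absolute log2 fold change over 0.5 at 1 or 4 Hz and for Slc3a2, Slc7a5, Slc7a8, Slc7a11, Slc7a1, Slc1a5 and Slc38a2, and others that passed were added after their values were seen. From each list at most 3 genes per direction with the smallest p at 4 Hz were named. One gene that this rule picks is not reported here.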

Additional observations from a re-analysis of the deposited data

Results flagged for a closer look

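Each tested member was examined within each condition for a single library far from the other 5 (Dixon's rule, on log2 CPM). Of 96 sets of 6 libraries, 4 had one, or 4.17%, where chance alone gives about 1 in 20. Slc7a11 was 9.21 CPM in 1 Hz replicate 4, with the others between 16.9 and 21.6 CPM. Slc1a3 was 3.48 CPM (37 counts) in 10 Hz replicate 4, with the others between 1.07 and 1.56 CPM. Slc38a3 was 1.90 CPM (17 counts) in 10 Hz replicate 5, with the others between 1.03 and 1.22 CPM. Slc43a2 was 34.8 CPM in 4 Hz replicate 1, with the others between 30.2 and 30.8 CPM. Without this last library the 4 Hz call of Slc43a2 was lost (adjusted p 0.0861), and without 1 Hz replicate 4 that of Slc7a11 held (adjusted p 0.00409).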

How the results depend on the processing

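Counts of calls are given as higher and lower members. With upper-quartile factors there were 3 higher at 1 Hz, with only the compared groups fitted 2, and with a log2 fold change over 0.5 required as well 0. On log2(TPM + 1) and log2(TPM + 0.1) alike, none were higher at 1 Hz (0) or 4 Hz (0) and none lower at 10 Hz than at 1 Hz (0) or 4 Hz (0). Of all 13422 genes on log2(TPM + 1), 481 were higher and 2933 lower at 1 Hz, and 782 and 4818 at 4 Hz. At 10 Hz, 2078 were higher and 294 lower than at 1 Hz, and 4459 and 679 than at 4 Hz. The lean was thus not particular to the carriers. With the library medians removed from log2(TPM + 1), 1 was higher at 4 Hz, 1 lower at 10 Hz than at 1 Hz, and 4 higher and 2 lower at 10 Hz than at 4 Hz. The strict filter (50 counts in 6 libraries) left 2 higher at 4 Hz, 1 lower at 10 Hz than at 1 Hz and 2 lower at 10 Hz than at 4 Hz, since it drops the rare Slc43a1 and Slc1a7. Without a filter 0 were lower at 10 Hz than at 1 Hz, with DESeq2 1, and with only those groups fitted 1, beside 3 higher. With the fold threshold the counts were 2 higher and 2 lower at 4 Hz, 3 and 1 at 10 Hz against 1 Hz, and 3 and 2 at 10 Hz against 4 Hz.

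Replicate numbers are shared across conditions, but they did not pair the libraries: over 36 same-numbered pairs the correlation of deviations had a median of -0.02 (-0.33 to 0.24). With the replicate block, 2 members were higher and 4 lower at 1 Hz, and 4 and 5 at 4 Hz, with Slc38a1 at 4 Hz at an adjusted p of 0.0700.

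Leaving out each library in turn gave 1 to 3 higher and 3 to 6 lower members at 1 Hz, 3 to 4 and 5 to 6 at 4 Hz, 0 to 0 for 10 Hz against the control and for 4 Hz against 1 Hz, 4 to 7 higher and 1 to 2 lower at 10 Hz than at 1 Hz, and 5 to 7 and 3 to 4 at 10 Hz than at 4 Hz. The 3 higher at 1 Hz came without 1 Hz replicate 1, and 2 without control replicate 3 or 1 Hz replicates 5 or 6.

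Of 577 values for single members under the alternatives, 24 had the opposite sign. On log2(TPM + 1) and log2(TPM + 0.1), Slc38a10 at 4 Hz was -0.039 and -0.040, Slc43a2 -0.10 and -0.11, and Slc7a1 -0.10 and -0.11. The rest were values near 0. For Slc3a2 at 1 Hz they were 0.019 with upper-quartile factors, 0.038 with medians removed, 0.00013 with the replicate block, 0.0027 with only those groups, and from -0.040 to 0.031 without 1 library. For Slc3a2 at 4 Hz they were 0.029 with upper-quartile factors and from -0.043 to 0.016 without 1 library. For Slc1a5 at 1 Hz they were 0.0045 with upper-quartile factors, 0.061 with medians removed, and from -0.083 to 0.034 without 1 library, and at 4 Hz 0.0018 with medians removed. Slc7a11, Slc38a7, Slc36a1 and, at 4 Hz, Slc38a2 and Slc1a7 passed at 1 or 4 Hz as reported under every alternative that tested them. So did Slc43a1 at 4 Hz, but it entered the test only through the groups where it is high, so this is no support. Rare messages of 4 to 26 counts per library limit what can be said of Slc43a1, Slc1a7 and Slc7a7.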

Other observations

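At 10 Hz the 6 libraries of Slc7a11 formed 2 sets with a gap, at 21.2, 23.6 and 25.1 CPM in replicates 3, 5 and 2 and at 40.1, 44.2 and 48.7 CPM in replicates 1, 4 and 6, while the control stayed between 31.0 and 36.3 CPM. In the same libraries Slc7a1 was 92.8, 97.8 and 113 CPM in replicates 3, 5 and 2 and 133, 141 and 160 CPM in replicates 1, 4 and 6. Slc38a2 split in the same way, at 496, 521 and 467 CPM and at 539, 613 and 632 CPM. Not every member did: replicate 2 was the highest 10 Hz library for Slc7a6 (38.02 CPM) and Slc38a7 (28.04 CPM, beside 28.02 CPM in replicate 6). Depth split as Slc7a11 did, with 8847870, 8950080 and 8052370 estimated counts in replicates 3, 5 and 2. Replicates 1, 4 and 6 had 11985400, 10225800 and 11339500. The labels give no batch that would separate these libraries, and the part of depth was not tested.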
